A study of Mus musculus with 12 samples.

Results

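The N6-methyladenosine (m6A) peaks of 10 long noncoding RNAs that are known from the brain were described in mouse hippocampus: Meg3, Rian, Mirg, Malat1, Neat1, Miat, Snhg11, Peg13, Kcnq1ot1 and Gas5. Their peaks were taken as the entries whose gene name was 1 of these 10 names in the peak list of each genotype and in the table that compares the genotypes. By this rule they held 28 of 33622 peaks in WT mice, 26 of 34935 peaks in Tyrobp-/- mice and 1 of 5640 entries of the comparison table. In both genotypes 8 of the 10 RNAs had at least 1 peak under their own name. Gas5 and Kcnq1ot1 had no peak under their names, and Kcnq1ot1 was therefore also read by position.

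Peaks came from m6A RNA immunoprecipitation followed by sequencing (MeRIP-seq) of hippocampi of male mice aged 6 months on the C57BL/6 strain. The WT mice were littermates of the Tyrobp-/- mice ("Tyrobp KO" in the labels), which carry a TALEN-made deletion in exon 2 of Tyrobp, the gene of the microglial signalling adaptor DAP12. Each genotype had 3 samples, each of them RNA pooled from 3 mice, and each sample gave an immunoprecipitated (IP) library and an input library, 12 libraries in all. Peaks were called on the 3 samples of a genotype together, so every peak has 1 pooled value per genotype, no replicate error and no test between genotypes here.

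m6A is placed on RNA during transcription by a methyltransferase complex around METTL3, is removed by demethylases and is bound by reader proteins of the YTH family. It is found near the ends of messenger RNAs and also in long noncoding RNAs, several of which stay in the nucleus. Meg3, Rian and Mirg are expressed from the maternal chromosome of the imprinted Dlk1-Dio3 domain, and Kcnq1ot1 and Peg13 from the paternal chromosome at other imprinted domains. Malat1 is found at nuclear speckles, Neat1 builds paraspeckles and Miat (Gomafu) forms its own nuclear bodies in neurons. Snhg11 and Gas5 are hosts of small nucleolar RNAs.

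The libraries held 61189368 to 73554506 valid reads each, and the G and C content was 47.6 to 50.2%. Of 13 genes typical of hippocampus and its glia, 12 had a peak in each list (Grik4 had none), whereas of 7 genes typical of the hypothalamus 4 had a peak in WT mice and 2 in Tyrobp-/- mice. These were Agrp and Pomc in both and Oxt and Trh in WT mice only. Pmch, Hcrt and Avp had none, although the authors name Pmch and Hcrt among the genes most upregulated in Tyrobp-/- mice. Peaks are thus no measure of hypothalamic RNA in either genotype. Tyrobp itself had no peak in either list, so the lists give no check of its deletion. A peak shows that the RNA was read, and a missing peak does not show that the RNA was absent.

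The gene name in the lists did not follow the RNA at 5 of the 10 loci. When every peak inside the span of an RNA was counted, whatever its name, the 10 RNAs held 59 peaks in WT mice and 52 in Tyrobp-/- mice. Of these, 31 and 26 carried another gene's name, namely Kcnq1 (at Kcnq1ot1), Gm26906 and Mir770 (at Meg3), Mir134 (at Mirg), Gm37376 (at Malat1) and Gm27533 (at Neat1). The exon annotation that stands beside each entry gave the gene identifier of Meg3, Mirg or Neat1 for all entries named Gm26906, Mir770, Mir134 and Gm27533. It gave Gm37376 itself for the entries of that name. At Miat the reverse was found, with 6 of 9 entries in WT mice and 3 of 5 in Tyrobp-/- mice annotated to exons of another gene identifier (ENSMUSG00000097986). The libraries were made with dUTP in the second strand, which keeps the strand of the RNA, but whether the peak caller used it is not given in the sources used here. An RNA and a gene overlapping it on the other strand therefore cannot be told apart by strand from the lists. Position or exon annotation can still set an entry apart from the gene it is named for, as at Malat1 and Kcnq1ot1 below.

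For 3 of the RNAs the reference sequence under a peak, or under the start of one, could be read from the RefSeq promoter windows (GRCm38.p6, 250 bases before to 50 bases after a transcript start). They are shown because they hold the Meg3 peak of the comparison table and the 5′ end at which the peaks of Malat1 began. The third lies in the 5′ part of the Miat span, where a pair of peaks differed by at least 2-fold between the genotypes. Capitals mark GGAC, a common form of the sequence context of m6A, on the transcribed strand.
Meg3, whole peak found in Tyrobp-/- mice only, chr12:109545221-109545311, plus strand: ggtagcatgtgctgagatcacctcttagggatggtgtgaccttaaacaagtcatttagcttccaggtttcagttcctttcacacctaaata
Malat1, first 50 bases of the RNA, chr19:5802623-5802672, minus strand: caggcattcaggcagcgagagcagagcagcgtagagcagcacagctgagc
Miat, whole peak of WT mice, chr5:112228996-112229175, minus strand: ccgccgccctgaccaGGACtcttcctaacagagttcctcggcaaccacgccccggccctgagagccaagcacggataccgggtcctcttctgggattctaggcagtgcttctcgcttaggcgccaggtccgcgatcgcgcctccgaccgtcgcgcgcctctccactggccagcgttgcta

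The Meg3 peak and the first 50 bases of Malat1 held no GGAC on either strand. The Miat peak held 1 on the transcribed strand and 2 on the other strand. It lay 5′ of the RefSeq start of Miat (chr5:112228948), within a longer Miat transcript of the lists that starts at chr5:112229395. Its FDR was 0.139, and its exon annotation gave the other gene identifier, ENSMUSG00000097986. Among 32851 promoter windows, the stretch of the same length and place held GGAC on the transcribed strand in 27.6% for Meg3, 18.9% for Malat1 and 46.9% for Miat, and on either strand in 48.6, 33.3 and 72.1%. AGAC, GAAC and AAAC were also counted on the transcribed strand. Only the Meg3 peak had a match, 1 AAAC, and no share over the windows was computed for these forms. A match or its absence describes these letters only. The Meg3 peak ended 8 bases before the end of a short Meg3 transcript (ENSMUST00000129245, chr12:109541001-109545319), and the reference continued at chr12:109545320-109545339 with an unbroken run of 20 A.

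The spans of Meg3, Rian and Mirg hold 1, 3 and 14 RefSeq miRNA hairpins on their strand. Peaks without gaps overlapped the hairpin of miR-770 in Meg3 and that of miR-134 in Mirg, and none of the others. The mature arms of these 2 hairpins are given in RefSeq as follows, with the seed (bases 2 to 8) in capitals.
miR-770-5p: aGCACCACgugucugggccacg
miR-770-3p: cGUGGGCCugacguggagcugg
miR-134-5p: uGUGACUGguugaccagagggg
miR-134-3p: cUGUGGGCcaccuagucacc
The 4 arms have 4 different seeds. At miR-770 the peak of WT mice (chr12:109563692-109563785, listed as Mir770) covered the 94 bases of the hairpin. The transcript given for this entry has the same ends, so the match of the ends is not a separate observation. The peak's fold enrichment, the scaled ratio of IP over input reads, was 1.91, with an FDR of 0.00102. No peak of Tyrobp-/- mice lay there. At miR-134 the peak of WT mice (chr12:109734098-109734248) covered all 71 bases of the hairpin with a fold enrichment of 4.88, and that of Tyrobp-/- mice (chr12:109734128-109734188) covered 50 of them with 2.62. The reads come from poly(A)-selected RNA cut into fragments, so the values at both hairpins were measured on the long RNA and not on the mature miRNAs.

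Most peaks of the RNAs lay below the median enrichment of all peaks. Their median fold enrichment was 3.55 in WT mice, where the median of all peaks was 5.54, and 22 of the 28 peaks lay below that median. In Tyrobp-/- mice it was 4.47 beside 5.72 for all peaks, and 17 of 26 lay below. At the same time the peak-calling FDR was listed at 0 for 7 of 28 peaks (25%) in WT mice and 14 of 26 (53.8%) in Tyrobp-/- mice, beside 11.5 and 10.2% of all peaks. By position under any name these counts were 12 of 59 (20.3%) and 17 of 52 (32.7%). In WT mice the entries at 0 added by position were those of the last exon of Meg3, listed as Gm26906, and entries named Gm27533 and Gm37376. The 4 entries named Neat1, which describe 2 regions, were at 0 in Tyrobp-/- mice and between 1e-226 and 1e-218 in WT mice. Overlapping entries were counted separately in all these shares.

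**Figure D1:**
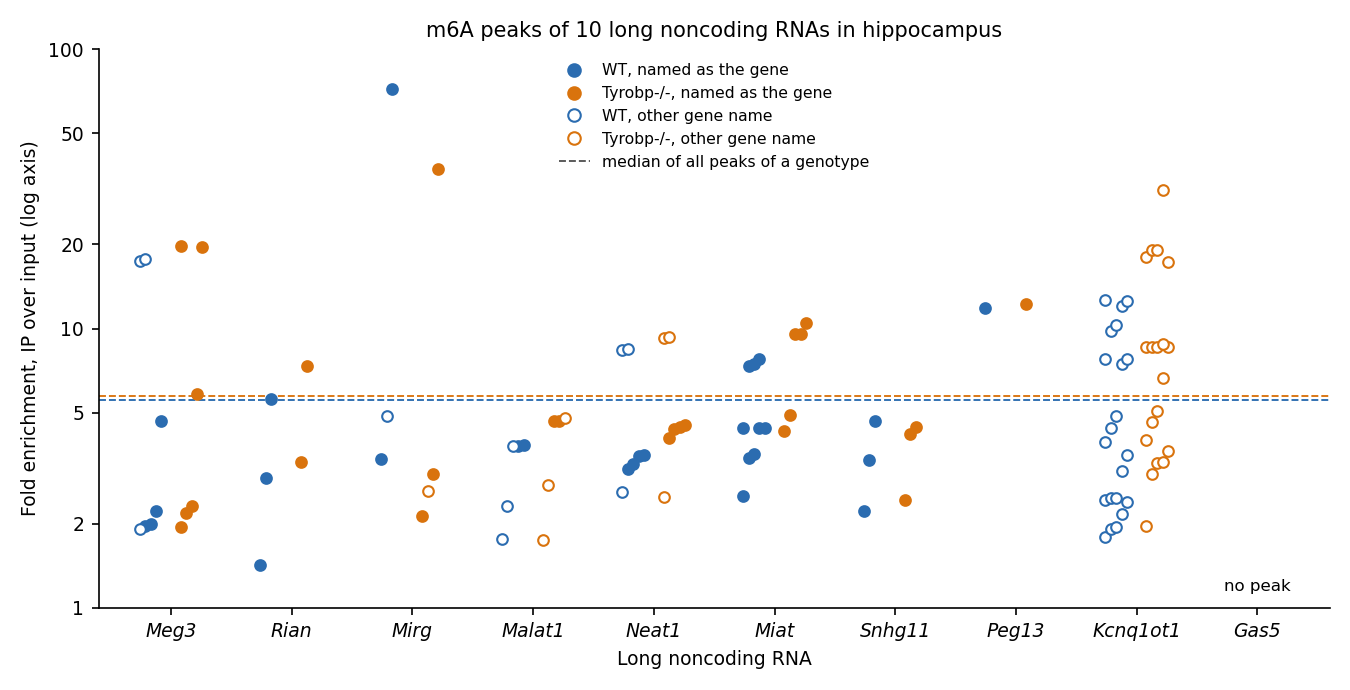
Fold enrichment of IP over input (log axis) of each m6A peak at the 10 RNAs, in WT mice (blue) and Tyrobp-/- mice (orange). Filled points are listed under the RNA's name, open points lie in its span under another name, and dashed lines are the medians of all peaks (5.54 and 5.72). The Mirg peaks of 72.3 and 37.4 stand highest, and Gas5 has no point.

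Meg3, an imprinted RNA with growth-suppressing activity, spans chr12:109540996-109571729 on the plus strand. Its strongest peak lay in its last exon, exon 10 of 10. In WT mice this peak was chr12:109571126-109571726, was listed as Gm26906, a gene on the opposite strand, and had a fold enrichment of 17.8. In Tyrobp-/- mice it was chr12:109571096-109571696, was listed as Meg3 and had a fold enrichment of 19.8. The log2 ratio of Tyrobp-/- over WT at this site was 0.15. Under the name Meg3 alone, the highest value would read 4.66 in WT and 19.8 in Tyrobp-/- mice, although the peak was present in both. Each list held a second, overlapping entry at the site, with 17.4 and 19.6.

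A peak in the middle of Meg3 had a fold enrichment of 4.66 in WT and 5.81 in Tyrobp-/- mice. It was joined over 4 exon blocks in WT mice (751 bases between chr12:109549532 and 109559127) and over 2 in Tyrobp-/- mice (571 bases from chr12:109558238). Further peaks near chr12:109561347 (2.00 in WT, 1.95 in Tyrobp-/- mice) and near chr12:109562187 (1.96 and 2.18) were low in both. The peak at chr12:109568456-109568666, with 2.22, was found in WT mice only. The peak of chr12:109545221-109545311, whose sequence is given above, was found in Tyrobp-/- mice only, with a fold enrichment of 2.32 and an FDR of 3.98e-40. It is the only entry under any of the 10 names in the comparison table.

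Rian, a host of small nucleolar RNAs of the C/D box kind, spans chr12:109603945-109661716. All its peaks were annotated to exons 9, 10 and 11 of 11 of a transcript at chr12:109646141-109661716 (ENSMUST00000181253). The first peak began 54082 bases from the 5′ end of the 57772 bases of the span, which starts well before that transcript. The peak in exon 9 (from chr12:109658027) had a fold enrichment of 1.42 in WT and 3.34 in Tyrobp-/- mice, a log2 ratio of 1.23. The WT value was among the lowest of its list, with 1.22% of all peaks below it. The peak of 3 exon blocks that was annotated to exon 10 (from chr12:109659106) had 5.60 in WT and 7.35 in Tyrobp-/- mice. A peak in the last exon (chr12:109661536-109661626) had 2.92 and was found in WT mice only.

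Mirg, a host of miRNAs further along the same domain, spans chr12:109729764-109749458. It held the strongest peak of the 10 RNAs in both genotypes, in exon 17 of 17 at the 3′ end. In WT mice this peak (chr12:109749370-109749460, 91 bases) had a fold enrichment of 72.3, a value that 53 of 33622 peaks reached. In Tyrobp-/- mice it (chr12:109749340-109749460, 121 bases) had 37.4, which 229 of 34935 peaks reached. The log2 ratio of Tyrobp-/- over WT was -0.95, just short of 2-fold, and 6.53% of all pairs had a lower ratio. The neighbouring peak that ends at chr12:109748922 had 3.42 in WT and 3.02 in Tyrobp-/- mice. In Tyrobp-/- mice a further peak (chr12:109733979-109734039) had 2.14 with an FDR of 0.182. All 3 pairs of Mirg, that at miR-134 included, had the lower value in Tyrobp-/- mice. The WT values 4.88 at miR-134 and 3.42 recurred in 443 and 156 entries of the WT list. The Tyrobp-/- peak at miR-134 had an FDR of 0.0468.

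The coding genes of this domain that had peaks were Rtl1 and Dio3 in both genotypes, and Dlk1 in Tyrobp-/- mice only. These 3 genes had 4 peaks in WT and 8 in Tyrobp-/- mice, and 3 pairs, of which 1 was higher in Tyrobp-/- mice.

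**Figure D2:**
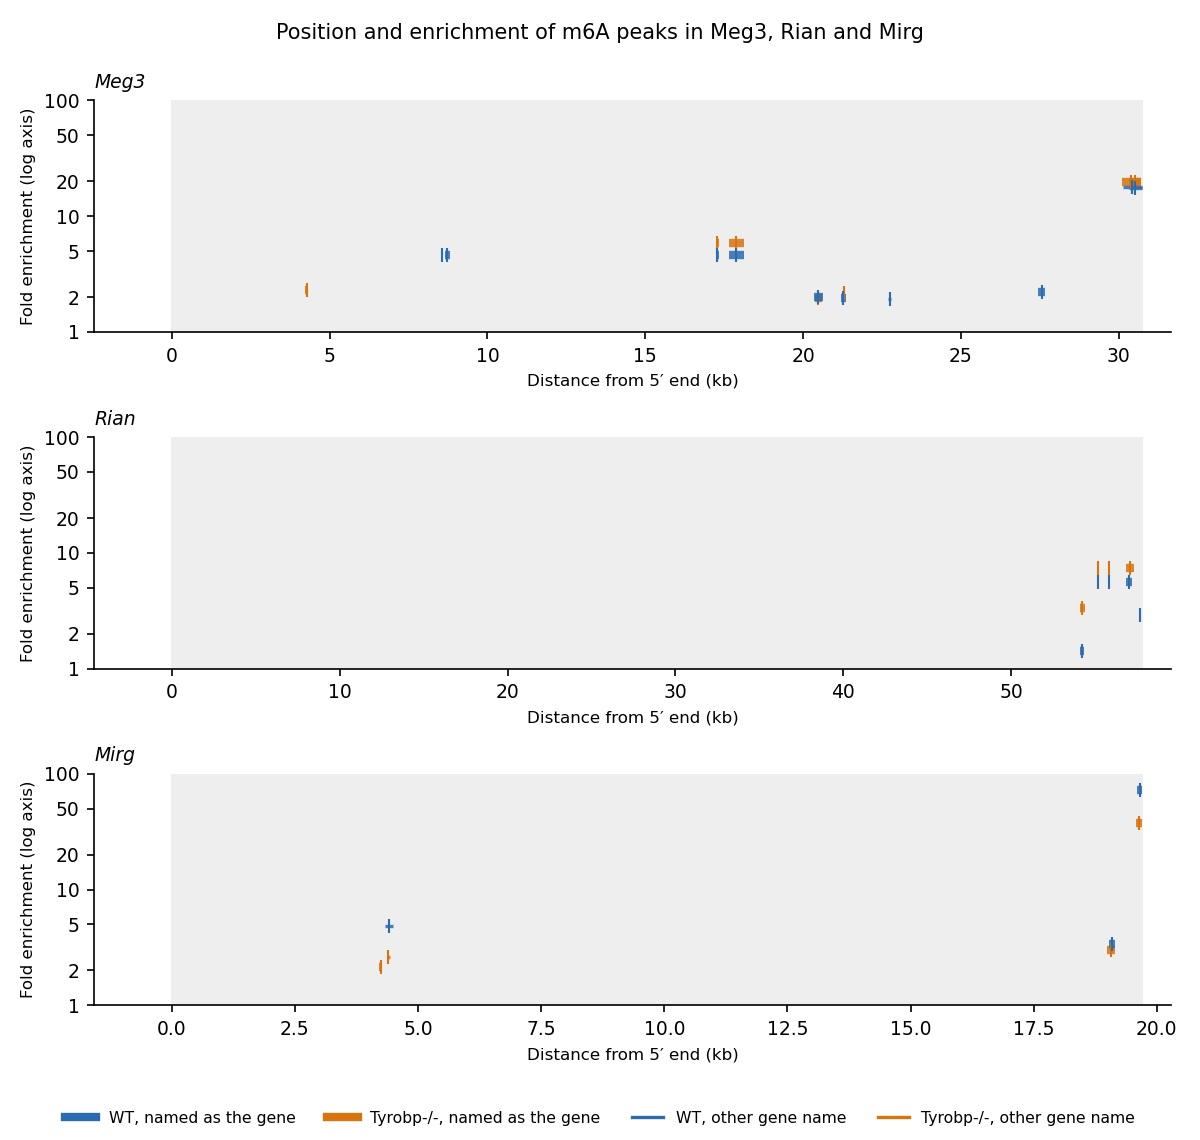
Peaks of Meg3, Rian and Mirg by distance from the 5′ end of the RNA's span in kb (grey), with fold enrichment on a log axis. Each bar is an exon block of a peak, at its length, with a tick at its middle, blue for WT and orange for Tyrobp-/- mice, thin where the list gives another gene name. The highest peaks of Meg3 and Mirg lie at the 3′ end, and the peaks of Rian lie in the last part of its span.

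Malat1 spans chr19:5795690-5802672 on the minus strand in 6983 bases, and all peaks lay in its 5′ part. The 2 entries under its name in each list describe 1 region at the first base of the RNA. The wider entry had a fold enrichment of 3.83 over 151 bases in WT mice and 4.65 over 211 bases in Tyrobp-/- mice. The other entry had 3.79 and 4.67. A longer peak that follows was listed as Gm37376, a gene annotated on the opposite strand, with 3.79 over 1379 bases in WT and 4.80 over 1020 bases in Tyrobp-/- mice. That gene is given at chr19:5801941-5802393, whereas the peak ran from chr19:5800934 in WT and from chr19:5801144 in Tyrobp-/- mice. A part of it thus lay outside Gm37376 but within Malat1. The 2 smaller Gm37376 entries in each list had 1.77 and 2.31 in WT and 1.75 and 2.75 in Tyrobp-/- mice. From the end of the last peak to the 3′ end of the RNA, 5244 bases in WT and 5454 bases in Tyrobp-/- mice held no peak.

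Neat1, next to Malat1 on the same chromosome, spans chr19:5824708-5845480 and is made as a short and a long RNA with the same 5′ end. All 7 entries of each genotype lay in the short RNA (chr19:5842307-5845476, 3170 bases), reaching at most a few bases past it. The 17599 bases found only in the long RNA, which is the form that builds paraspeckles, held no peak. The libraries were made from poly(A)-selected RNA, and the lists give no level of the long RNA in them. The missing peaks therefore do not show that the long RNA lacks m6A. The strongest peak was listed as Gm27533, a gene on the same strand within Neat1, with 8.44 in WT and 9.30 in Tyrobp-/- mice and an overlapping entry with 8.39 and 9.23. The 4 entries under the name Neat1 described 2 regions, at the 5′ end and at the 3′ end of the short RNA. At the 5′ end (up to chr19:5845478) the values were 3.54 in WT and 4.43 in Tyrobp-/- mice. At the 3′ end (chr19:5842301-5842751) they were 3.14 and 4.07. A smaller Gm27533 entry had 2.59 and 2.49.

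Miat spans chr5:112213228-112229395 on the minus strand and had the most entries under its own name in WT mice, 9, beside 5 in Tyrobp-/- mice. The entries formed 6 and 4 separate regions. At the 3′ end the peak from chr5:112213228 had 7.47 over 511 bases in WT and 4.90 over 331 bases in Tyrobp-/- mice, a log2 ratio of -0.61. A peak close by (chr5:112214607-112214967), with 2.51, was found in WT mice only. The peak near chr5:112219882 had 3.44 in WT and 4.30 in Tyrobp-/- mice.

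The other Miat entries lay at the 5′ end and carried the other gene identifier in their exon annotation. There the peak chr5:112228608-112228742 had 7.32 in WT and 9.53 in Tyrobp-/- mice. The peak from chr5:112229005 in WT mice had 4.39 with an FDR of 0.139, and its partner from chr5:112229125 in Tyrobp-/- mice had 10.5 with an FDR of 0.0174. They shared 61 bases and their log2 ratio was 1.26. Both lay 5′ of the RefSeq start of Miat (chr5:112228948). A WT entry of 7.81 (chr5:112229264-112230335) had 2 exon blocks, 1 of 123 bases within the Miat span and 1 of 146 bases beyond its 5′ end. The outer block reached 940 bases past that end. The values 4.39, 7.81, 9.53 and 10.5 recurred in 246 and 963 entries of the WT list and in 655 and 588 entries of the Tyrobp-/- list. Whether the repeated values bear on the ratio was not tested.

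Snhg11 spans chr2:158375638-158386474 and had 3 peaks in each genotype, all paired and all annotated as 3′ UTR of a transcript. The peak at the 3′ end of these (chr2:158385786-158386145 in WT mice) had 4.68 in WT and 4.43 in Tyrobp-/- mice. That before it (from chr2:158385188) had 3.37 and 4.20, and the first (from chr2:158383215) had 2.22 and 2.43. The log2 ratios were between -0.08 and 0.32.

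Peg13, which lies within the gene Trappc9, spans chr15:72805600-72810324. Its single peak began at the first base of the RNA and covered most of it, 3918 of 4725 bases (82.9%) in WT and 3768 (79.7%) in Tyrobp-/- mice. The fold enrichment was 11.8 in WT and 12.2 in Tyrobp-/- mice, a log2 ratio of 0.05. Among the entries named for the 10 RNAs these peaks were the longest in exon bases. Of the 4 coding genes of this domain, Trappc9, Kcnk9, Chrac1 and Ago2, all had peaks in both genotypes, and of their 6 pairs 4 were higher in Tyrobp-/- mice.

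**Figure D3:**
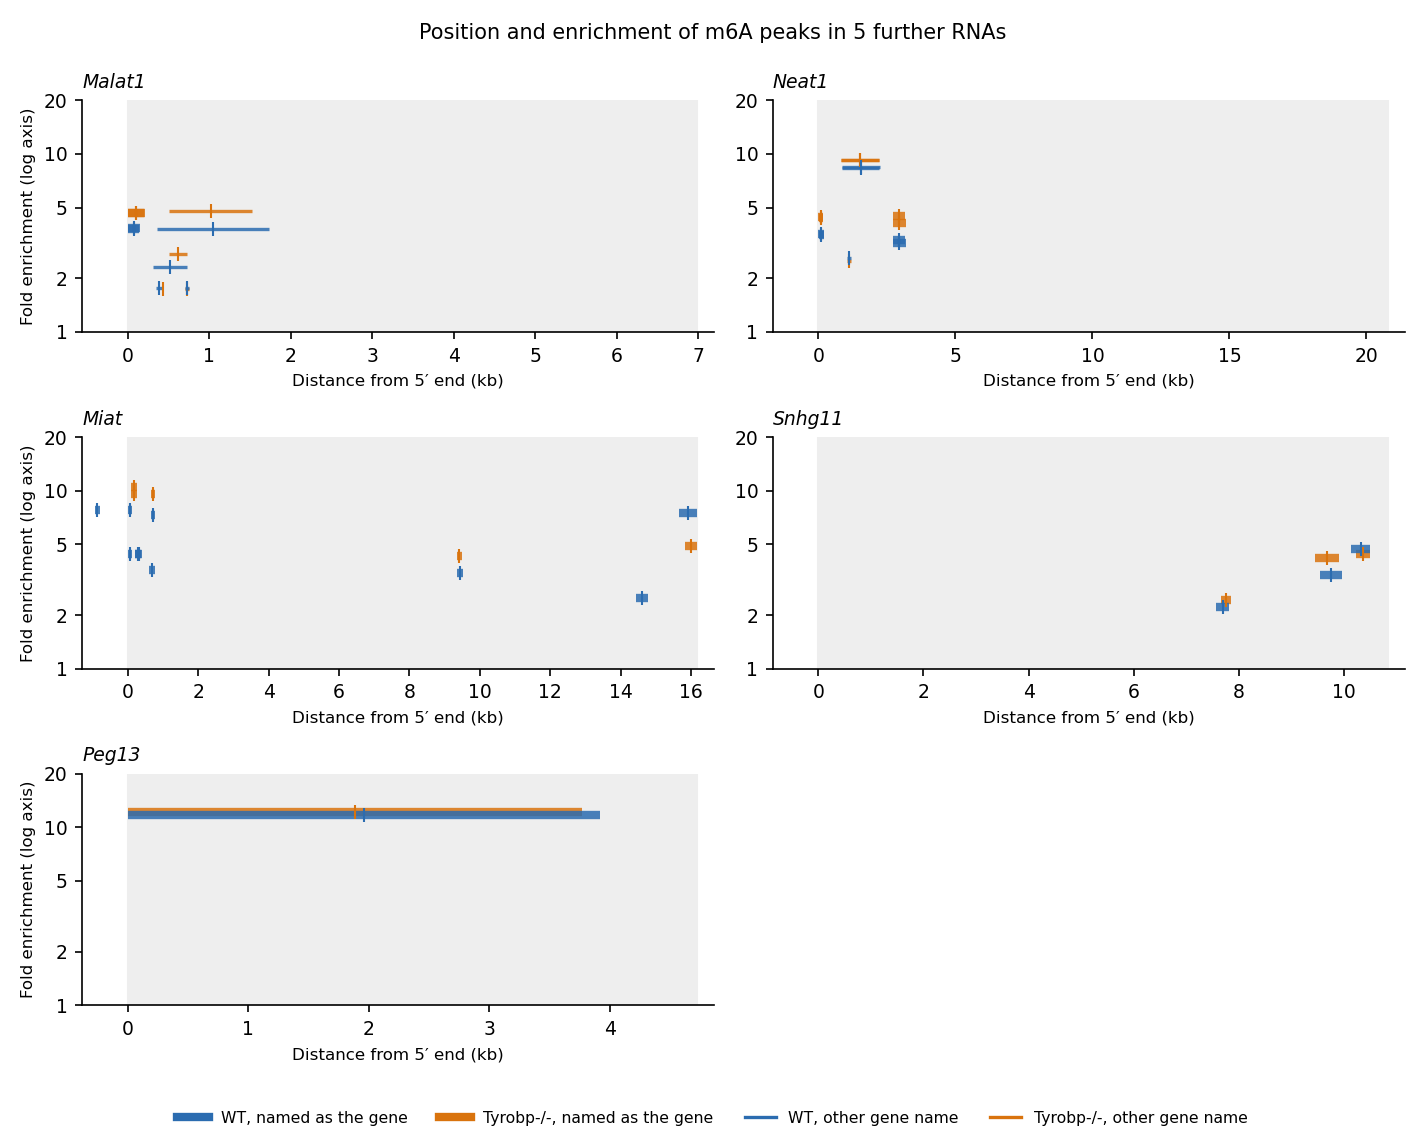
Peaks of Malat1, Neat1, Miat, Snhg11 and Peg13 by distance from the 5′ end of the RNA's span in kb (grey), with fold enrichment on a log axis. Bars are exon blocks of peaks at their length, with a tick at the middle, blue for WT and orange for Tyrobp-/- mice, thin where the list gives another gene name. Peaks of Malat1 and Neat1 lie in the 5′ part only, those of Snhg11 in the 3′ part, and that of Peg13 covers 82.9 and 79.7% of the RNA.

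Kcnq1ot1 is transcribed from within Kcnq1 on the opposite strand, where it silences neighbouring genes on the same chromosome, and spans chr7:143213111-143296547 in 83437 bases. No peak carried its name. However, of the 22 peaks named Kcnq1 in WT mice and the 20 in Tyrobp-/- mice, 21 and 19 lay in the span of Kcnq1ot1. The annotation placed all of these in exon 1 of 1 of a gene identifier (ENSMUSG00000101609) other than that of Kcnq1, and the files do not pair that identifier with a name. Fold enrichment there was 1.80 to 12.7 (median 3.91) in WT mice and 1.96 to 31.4 (median 8.58) in Tyrobp-/- mice. The median of 8.58 is itself a value that 846 entries of the Tyrobp-/- list shared. In the span, 47.6% of WT and 47.4% of Tyrobp-/- peaks had a value shared by over 100 entries of their list. Over all peaks these shares were 29.1 and 29.9%.

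The 3 highest values in WT mice were 12.7 (chr7:143219383-143220373), 12.5 (chr7:143258071-143259331) and 12.0 (chr7:143217674-143218213). In Tyrobp-/- mice the highest were 31.4 (chr7:143218123-143218333) and a pair of peaks at 19.1 (chr7:143219653-143220013 and chr7:143221003-143221242). The peak of Tyrobp-/- mice that overlapped the WT peak of 12.5 had 17.3 (chr7:143258101-143259481) and, at 5.01e-42, the smallest FDR in the span. WT and Tyrobp-/- peaks formed 12 pairs, of which 10 had the higher value in Tyrobp-/- mice, beside 53.5% of all pairs under any name. Their median log2 ratio was 0.60. Of the 12 pairs, 4 were at least 2-fold higher, beside 6.98% of all pairs, with ratios of 2.32, 2.61, 2.62 and 10.6. The WT peaks of the ratios 2.32, 2.61 and 10.6 had peak-calling FDRs of 0.0525, 0.0871 and 0.0977, all above 0.05. That of the ratio 2.62 had 4.07e-10. The ratio of 10.6 joined peaks of 1.80 and 19.1 that shared 1 base. The pair of 2.62 shared 91 bases, of 540 in the WT and 211 in the Tyrobp-/- peak. That of 2.32 shared 181 bases, of 211 and 601, and that of 2.61 shared 61, of 61 and 331. In none of the 4 was 50% of both peaks shared.

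In the span of Kcnq1ot1, 7 of 21 peaks of WT mice (33.3%) and 5 of 19 of Tyrobp-/- mice (26.3%) had no partner under any gene name, beside 20.5 and 22.6% of all peaks. Of the 5 in Tyrobp-/- mice, 4 had the same value, 8.58, which 846 entries of that list shared, with FDRs between 0.0912 and 0.102. The FDR was above 0.05 for 6 of 21 peaks in WT and 5 of 19 in Tyrobp-/- mice, or 28.6 and 26.3%, beside 10.3 and 11.0% of all peaks. Near the 5′ end the Tyrobp-/- peak chr7:143295919-143296519 had 18.1 and its WT partner (chr7:143295889-143296099) had 7.81. The comparison table held 3 entries in the span, all named Kcnq1, at chr7:143224841-143225201, chr7:143228920-143229370 and chr7:143296279-143296489. Besides Kcnq1, the coding genes of the domain with a peak were Osbpl5, Ascl2 and Tssc4 in both genotypes and Cd81 in Tyrobp-/- mice only, and Cdkn1c, Phlda2 and Slc22a18 had none.

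**Figure D4:**
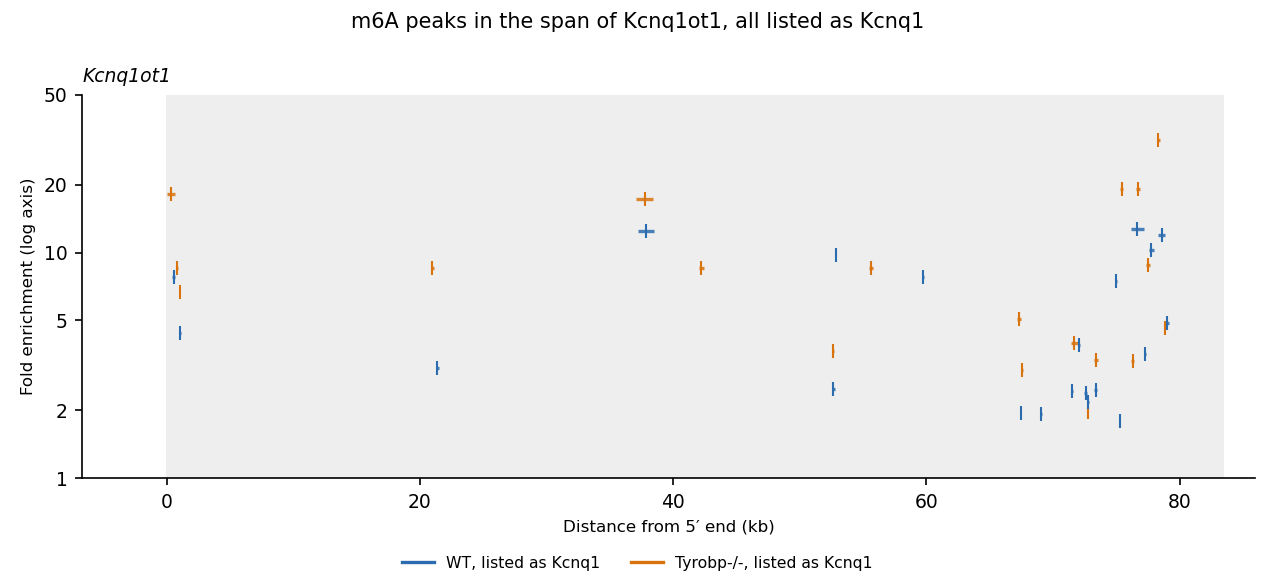
Peaks in the span of Kcnq1ot1 by distance from its 5′ end in kb (grey), with fold enrichment on a log axis, blue for WT and orange for Tyrobp-/- mice. Each bar is a peak at its length with a tick at its middle, and every peak is listed as Kcnq1. The Tyrobp-/- peak of 31.4 and several others of both genotypes lie in the last part of the span.

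Gas5, whose spliced RNA is best known as a growth-arrest transcript, spans chr1:161034601-161038539. No peak of any name lay in its span in either genotype, nor did an entry of the comparison table. This gives no level of its RNA.

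The enrichment of WT and Tyrobp-/- mice was compared at pairs of peaks of the same gene identifier that were each other's largest overlap in exon bases. The entries named for the 10 RNAs formed 19 such pairs. The value was higher in Tyrobp-/- mice in 14 pairs and lower in 5, and the median log2 ratio was 0.32, beside 0.05 for all 23674 pairs. The 95% order-statistic interval of the median over these pairs was -0.04 to 0.38, which holds both 0 and the median of all pairs. It treats pairs of the same RNA as independent, which they are not. Over all pairs 53.6% were higher in Tyrobp-/- mice. Of the 3 pairs of Neat1, 2 come from overlapping entries at the 3′ end of the short RNA and are not separate measurements. Under the RNAs' own names, the pairs of Neat1, Rian, Malat1 and Peg13 had the higher value in Tyrobp-/- mice and those of Mirg the lower, and Meg3, Miat and Snhg11 had pairs of both kinds. By position, 4 of 5 pairs of Neat1 and 3 of 4 of Malat1 were higher, the others being 2.59 and 2.49 at Neat1 and 1.77 and 1.75 at Malat1. Overlapping entries are among these pairs too, since the entries formed only 3 regions at Neat1 and 2 at Malat1 in each genotype.

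Of the 19 pairs, 2 were at least 2-fold higher in Tyrobp-/- mice, namely that of Rian in exon 9 (1.42 and 3.34) and that of Miat near the 5′ end (4.39 and 10.5). Over all pairs this share was 6.92%. None was at least 2-fold lower, where the share over all pairs was 6.06%. With 19 pairs, counts of this size are not set apart from these shares. With pairs formed by position under any gene name there were 38 pairs, 28 higher and 10 lower in Tyrobp-/- mice, with a median log2 ratio of 0.32. Pairs of overlapping entries were counted separately, so these 38 are not separate sites. Of these, 6 were at least 2-fold higher, beside 6.98% of all such pairs, and none at least 2-fold lower, beside 6.01%. The additional 4 lay in the span of Kcnq1ot1, and each shared less than 50% of its longer peak. The difference from the share over all pairs was not tested.

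**Figure D5:**
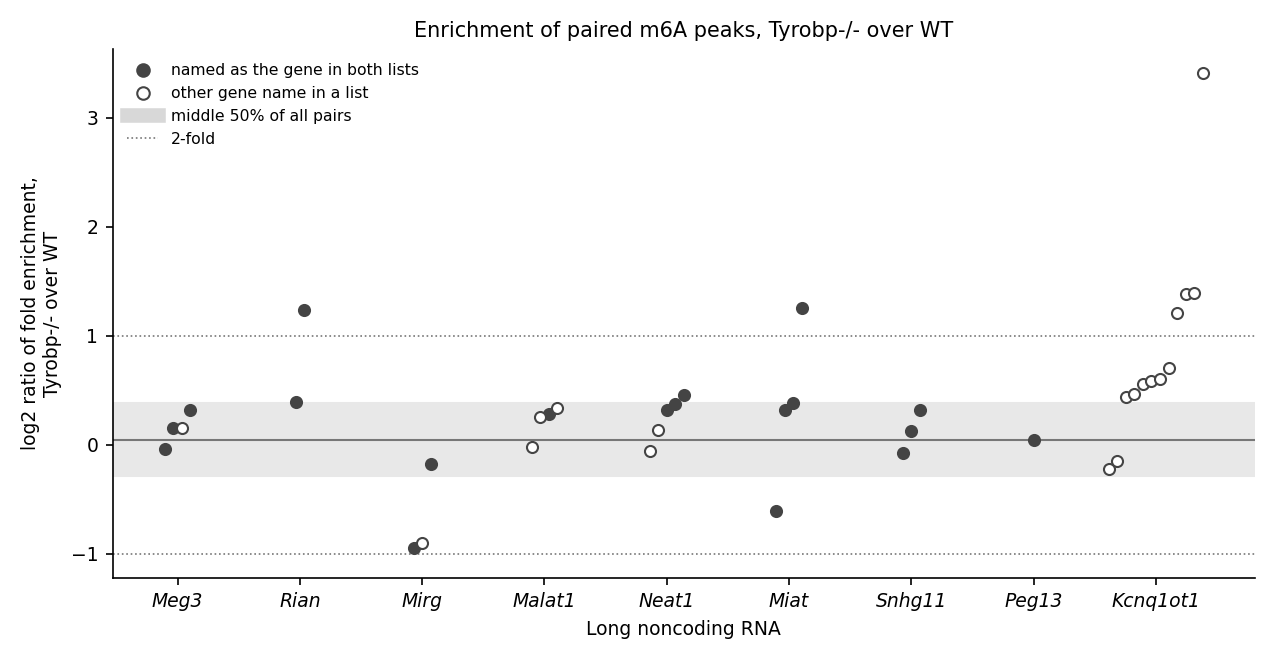
The log2 ratio of fold enrichment of Tyrobp-/- over WT mice for the 38 pairs of peaks at the RNAs, paired by position under any gene name. Open points carry another gene name in at least 1 list, the grey band holds the middle 50% of all pairs with their median as a line, and dotted lines mark 2-fold. The Rian, Miat and Kcnq1ot1 points above the upper dotted line number 6, and the Mirg points of -0.95 and -0.90 are the lowest.

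Among entries named for the RNAs, 3 of 28 in WT mice (10.7%) shared no exon base with a peak of the same gene identifier in Tyrobp-/- mice, beside 22.5% of all WT peaks. These were 1 each in Meg3, Miat and Rian, described above. In Tyrobp-/- mice 4 of 26 (15.4%) had no WT partner, beside 24.6% of all peaks. Of these 4, 2 were the Meg3 entries at the last exon, whose WT partner was listed as Gm26906, and the others were the Meg3 peak of the comparison table and the Mirg peak of 2.14. By position under any name, 11 of 59 peaks in WT mice had no partner, beside 20.5% of all peaks, and 7 of 52 in Tyrobp-/- mice, beside 22.6%. Of the named entries, the remaining 6 in WT and 3 in Tyrobp-/- mice overlapped a partner that had a larger overlap with another entry.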

How the data were processed

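The authors trimmed reads with fastp, mapped them with HISAT2 to the mouse genome (Ensembl v96, GRCm38), called peaks with exomePeak from the pooled libraries of each genotype, and assigned gene names and exons with ChIPseeker. Versions are not given in the sources used here. The authors deposited counts of raw and valid reads, and the percent of G and C bases, for each library. In the peak lists the authors deposited the p-value, its FDR as a log10 score and the fold enrichment, a ratio of IP over input. The comparison table holds the authors' own log2 fold changes, p-values and FDR, of which none was used. Only its positions were read.

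Entries were matched with bedtools 2.31.1 in Python 3.11.15 (pandas 2.3.3, NumPy 2.4.6), with at least 1 shared exon base, and the matching was checked on simulated data. Spans joined RefSeq (GRCm38.p6) with the transcripts in the lists. A 2-fold threshold describes pairs, and no test was run, since each genotype has 1 pooled value. Replicates of a genotype were separate pools of mice, but their spread cannot be seen in pooled peaks. All 10 RNAs were named, with their highest and 2-fold changed peaks. Unpartnered peaks were described singly except in the span of Kcnq1ot1, where they were counted. From the other lists, gene names, counts, shares and medians were given. The RNAs and gene lists were chosen with earlier results of these data known.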

Additional observations from a re-analysis of the deposited data

How the results depend on the processing

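Across 11 results, 31 of 42 alternatives left the value within 1.5 times (counts) or within the 95% order-statistic interval of the median over peaks. The number of entries was 59 in WT and 52 in Tyrobp-/- mice by position, and 11 in WT mice at a fold enrichment of at least 4, where Tyrobp-/- mice kept 19. With 1 peak per RNA, the highest, the median fold enrichment was 5.14 in WT and 8.93 in Tyrobp-/- mice, where the WT value takes Meg3 without its last-exon peak, listed as Gm26906. With the highest peak by position for the same 8 RNAs it was 8.12 and 9.90. With a reciprocal overlap of 50%, 7 WT entries had no partner and 1 pair, that of Rian, was at least 2-fold higher in Tyrobp-/- mice. With partners under any gene name, 2 Tyrobp-/- entries had no partner. At a threshold of 1.5-fold, 2 pairs, of Mirg and Miat, were lower in Tyrobp-/- mice. The median log2 ratio was 0.21 to 0.32 in every setting tried, all within its interval of -0.04 to 0.38. The settings largely reuse the same pairs, and the interval treats these as independent, which they are not. Staying within it is therefore a weak check. Counting by position, also for the highest peak, counting overlapping entries together and partners under any name were chosen after seeing the data. No paired analysis was possible because peaks were called on pooled replicates, and for the same reason no replicate could be left out. The lists give no read count per peak, so the depth behind a value is unknown, and the effect of values that recur in many entries on the ratios was not tested.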

Other observations

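Of 44 other names of long noncoding RNA genes, 20 had a peak in WT mice and 23 in Tyrobp-/- mice, the 20 of WT mice among them, with 59 and 66 entries. Their median fold enrichment was 4.69 and 5.47. They formed 43 pairs, of which 23 had the higher value in Tyrobp-/- mice, with a median log2 ratio of 0.17. Of these pairs 6 (14.0%) were at least 2-fold higher and 3 (6.98%) at least 2-fold lower, beside 6.92 and 6.06% of all pairs. No partner of the same gene identifier was found for 11 WT entries (18.6%) and 21 Tyrobp-/- entries (31.8%), beside 22.5 and 24.6% of all peaks. Snhg17, Snhg20 and Hotairm1 had an entry in Tyrobp-/- mice only. A missing name does not show a missing peak, since a gene can be listed under an older symbol or under the name of a gene that overlaps it.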
